A study of Rattus norvegicus with 6 samples.

Results

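Interferon-stimulated genes were followed in bulk RNA-seq counts of 6 mammary tumors from F344 rats, an inbred strain widely used in studies of aging. The group was selected by gene symbol and holds 39 genes, each with a single row among the 30562 rows of the count table. These are genes that interferons switch on, together with the factors that carry the interferon signal inside the cell. After the filter on low counts, 37 of the 39 genes remained among 14060 tested genes. The list was chosen with the difference between age groups already known for some of its genes. That difference is therefore a description of these genes, and it supports nothing about the group.

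All 6 rats received a pellet releasing medroxyprogesterone acetate (MPA, a synthetic progestin; 50 mg released over 90 days) and a single oral dose of the carcinogen 7,12-dimethylbenz[a]anthracene (DMBA, 65 mg per kg). Older rats came from an aging colony at 19 to 21 months of age, and younger virgin rats were purchased at 6 to 8 weeks. These are ages on arrival. The rats were housed before treatment and then followed for tumors, so both groups were older at treatment and at tumor collection. The older group held tumors 102, 107 and 116, and the younger group held tumors 157, 158 and 167. No untreated or normal mammary tissue was analysed here, so every level is that of a tumor with the cells that surround it. Each tumor gave 1 library and came from its own rat, with 3 tumors per group.

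Library totals ranged from 3508571 to 6525830 counts, and 3 counts correspond to 0.518 to 0.995 CPM, the usual unit of counts scaled to library size, depending on the tumor. The labelled tissue was checked against epithelial markers. Epcam, an epithelial adhesion protein, was 298, 291 and 341 CPM in the older tumors 102, 107 and 116, and 390, 461 and 482 CPM in the younger tumors 157, 158 and 167. Krt8, a luminal keratin, was 153, 97.3 and 264 CPM in older and 278, 277 and 326 CPM in younger tumors. Both were read in every library, and both were lower in every older tumor than in every younger one (log2 fold changes, older minus younger, of -0.52 and -0.78, adjusted p = 0.628 and 0.652, edgeR). These 2 thus lay on the same side as most interferon-stimulated genes, but the epithelial list as a whole did not separate. Of its 9 tested markers, 6 had a lower and 3 (Elf5, Pgr and Csn2) a higher fitted level in older tumors. The mean log2 CPM over the 9 was 8.21 in older and 8.09 in younger tumors. The part of these markers in the levels of the interferon-stimulated genes was not tested. Tumor 102 stood apart from the others. It was the lowest of the 6 for 27.3% of all tested genes and the highest for 26%, against 10.9% to 18.2% and 11.2% to 18.7% in the other 5, and values without it are given beside the genes that it moved most.

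Interferons are secreted proteins released when a cell senses viral or misplaced nucleic acid. Type I interferons (alpha and beta) bind the receptor IFNAR1/IFNAR2, and the kinases JAK1 and TYK2 then activate a complex holding STAT2 and IRF9 that binds the interferon-stimulated response element (ISRE) in gene promoters. Interferon gamma, made mainly by T and NK cells, acts through IFNGR1/IFNGR2 on another element, the gamma-activated site (GAS). The induced proteins cut viral RNA, block translation, trap particles at the membrane or modify other proteins, and in tumors the same genes are read as a mark of interferon signaling in cancer cells and in the infiltrate.

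Both elements were looked for in the RefSeq promoter sequences of assembly GRCr8, from 250 bases before to 50 bases after each gene's start. A promoter was matched to 30 of the 39 genes. The ISRE was searched as GAAA, any 2 bases, GAAA and the GAS as TTCNNNGAA, on both strands. The ISRE letters were in 18 of the 30 promoters (60%), against 1312 of all 33469 promoters (3.92%). GAS letters were in 6 of the 30 (20%; Irf1, Irf9, Oas1a, Bst2, Parp14 and Ifi44l), against 8.87% of all promoters, and in Bst2 the GAS overlapped the ISRE. A match of letters is a description and not a measured binding site. The following stretches are those of genes whose levels are described next, chosen because their age groups did not overlap (Rsad2, Irf7, Oas1a, Eif2ak2 and Oas3) or because they differed in sign from most of the group (Irf1 and Gbp2). They are written from 5′ to 3′ on the gene's strand with 1 match each in capitals. Oas1a holds a second match that begins 35 bases before its start and overlaps the first, and only the first is in capitals.
Rsad2: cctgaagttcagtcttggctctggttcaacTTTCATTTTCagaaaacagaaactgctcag
Irf7: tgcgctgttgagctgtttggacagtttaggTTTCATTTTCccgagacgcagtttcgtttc
Oas1a: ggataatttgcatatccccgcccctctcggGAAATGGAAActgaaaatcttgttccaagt
Eif2ak2: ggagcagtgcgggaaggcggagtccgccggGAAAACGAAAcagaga
Oas3: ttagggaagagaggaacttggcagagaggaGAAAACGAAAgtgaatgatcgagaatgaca
Gbp2: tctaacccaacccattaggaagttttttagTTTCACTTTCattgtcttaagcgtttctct
Irf1: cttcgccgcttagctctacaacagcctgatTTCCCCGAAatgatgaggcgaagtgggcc

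In GRCr8 these stretches lie at chr6:48788238-48788297 (Rsad2, minus strand), chr1:205800063-205800122 (Irf7, minus strand), chr12:41330395-41330454 (Oas1a, plus strand), chr6:21941108-21941153 (Eif2ak2, plus strand), chr12:41439607-41439666 (Oas3, plus strand), chr2:234005666-234005725 (Gbp2, plus strand) and chr10:38417763-38417821 (Irf1, plus strand). The capitals begin 147 bases before the start of Rsad2, 69 before Irf7, 41 before Oas1a, 16 before Eif2ak2, 95 before Oas3 and 31 before Gbp2. All 6 are ISRE letters, read on the opposite strand in Rsad2, Irf7 and Gbp2. The Irf1 stretch holds GAS letters 142 bases before the start, and no ISRE letters were in its window. ISRE letters were in 14 of the 22 matched genes that had a lower fitted level in older tumors (63.6%) and in 4 of the 7 that had a higher one (57.1%). GAS letters were in 2 of those 22 (9.09%) and in 3 of those 7 (42.9%), counts too small to order the groups.

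Most of the group had lower levels in tumors from older rats. Of the 37 tested genes, 28 had a lower and 9 a higher fitted level in older tumors, where 50.4% of all tested genes had a lower one. Their median log2 fold change, older minus younger, was -0.58, and the median over all tested genes was 0. The log2 fold changes ran from -2.22 for Rsad2 to 0.85 for Gbp2. Below -1 lay 8 genes (Rsad2, Usp18, Mx2, Oas2, Oas1a, Irf7, Oasl2 and Oasl), and 0 lay above 1.

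None of the 37 genes passed the test across all genes (adjusted p between 0.156 and 0.994, quasi-likelihood test of edgeR, Benjamini-Hochberg adjustment over all tested genes), and 0% of all tested genes did, the smallest adjusted p being 0.0934. An unadjusted p under 0.05 was reached by 4 genes that were lower in older tumors (Rsad2, Mx2, Oas2 and Usp18; background 3.27% of all tested genes) and by 1 that was higher (Oas3; background 5.28%). DESeq2 called Rsad2 and Mx2 (2 of 37; background 0.813% lower calls), with adjusted p of 3.96e-07 and 0.0188. All 3 older tumors lay below all 3 younger tumors in 6 genes (Irf7, Oas1a, Oas2, Rsad2, Mx2 and Eif2ak2; background 5.58%) and above them in 1 (Oas3; background 6.57%), and the groups overlapped in 30. The 6 became 13 without tumor 107 (background 10%) and 16 without tumor 158 (background 11%). Since the list was chosen with this contrast known, nothing is read from these counts.

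**Figure D1:**
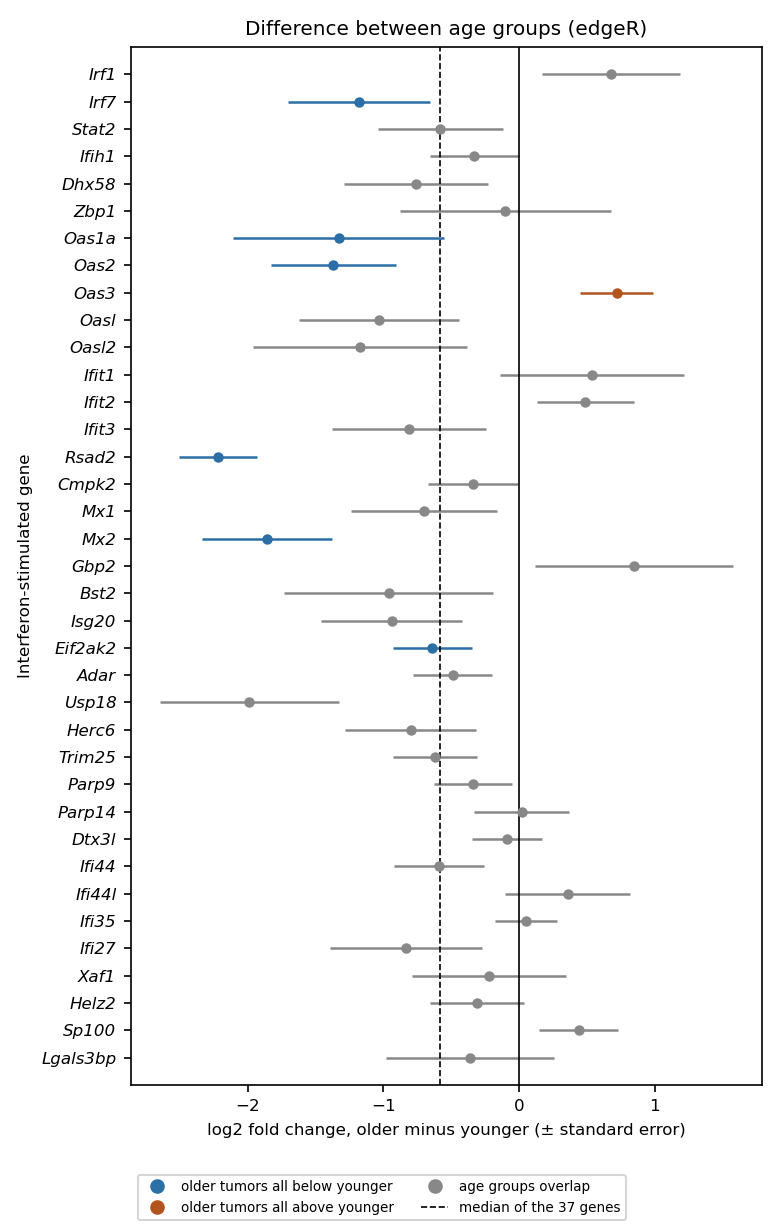
Fitted log2 fold change, older minus younger (horizontal axis), for the 37 tested interferon-stimulated genes (vertical axis, ordered by role), with points for the edgeR estimate and bars for ±1 SE (standard error). Blue marks the 6 genes with every older tumor below every younger one, orange marks Oas3 with every older tumor above, grey marks the 30 overlapping genes, and the dashed line is the median of -0.58.

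Much of the spread was between tumors of the older group. Tumor 102 had the lowest level of all 6 tumors in 28 of the 37 genes and the lowest of the older tumors in 30. Tumor 157 of the younger group had the highest level of all 6 in 19. The mean log2 CPM over the 37 genes was 4.04 in tumor 102, 5.36 in 107 and 5.24 in 116, and 5.86, 5.19 and 5.51 in the younger tumors 157, 158 and 167. Older tumors 107 and 116 thus lay within the range of the younger group by this mean, and 102 lay below all others. The difference of the group means was -0.64 (older 4.88 ± 0.73, younger 5.52 ± 0.34; SD, n = 3 each) and -0.22 without tumor 102. Likewise, the median log2 fold change moved from -0.58 to -0.29 without it. The 39 genes took 0.112% of all counts in tumor 102, 0.24% in 107, 0.244% in 116, 0.34% in 157, 0.181% in 158 and 0.283% in 167.

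**Figure D2:**
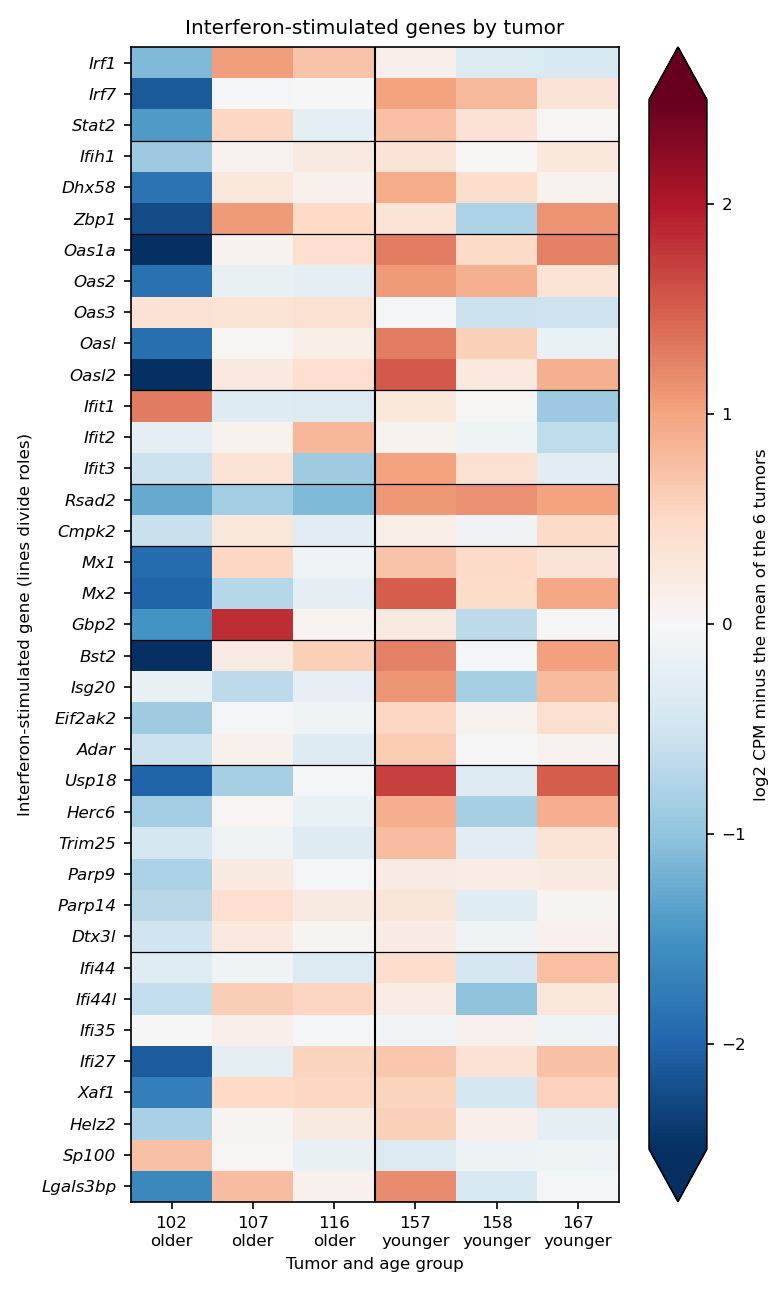
Level of each of the 37 tested genes (rows, lines divide the roles) in each of the 6 tumors (columns), as log2 CPM minus the gene's mean over the 6 tumors, with blue for lower and red for higher levels. Tumor 102 is the lowest of the 6 in 28 genes, Rsad2 separates the 2 age groups in every tumor, and Oas3 is level among the 3 older tumors.

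In bulk tissue, fewer cells of a type and less RNA per cell cannot be told apart. Marker sums of macrophages, T and NK cells, and B and plasma cells were higher in every older tumor than in every younger one. Those of dendritic cells and neutrophils overlapped. The epithelial markers were mixed. Of 9 tested, 6 had a lower fitted level in older tumors, Epcam and Krt8 among them, and 3 a higher one (Elf5, Pgr and Csn2). The epithelial marker sum was 21400 to 109000 CPM in older and 2610 to 36200 CPM in younger tumors. Except in tumor 167, most of that sum was Csn2 (107000 of 109000 CPM in tumor 102). It therefore does not describe the other epithelial markers. Summed levels of 12 macrophage and monocyte markers were 800 to 1420 CPM in older and 219 to 635 CPM in younger tumors. The largest part of each older sum was Lyz2 (495, 812 and 324 CPM, against 137, 79.9 and 40.8 CPM in younger tumors). Of the 12, 11 had a higher fitted level in older tumors and 1, Cd14, a lower one (log2 fold change -0.33). Cd14 was highest in the younger tumor 158, at 412 CPM. An unadjusted p under 0.05 was reached by 6 of the 12, all higher in older tumors (background 5.28% of all tested genes), with 0 called (edgeR). T and NK cell markers, 7 of 12 tested, summed to 50 to 720 CPM in older and 17.7 to 28.7 CPM in younger tumors, with 6 under 0.05 (all higher, background 5.28%) and 0 called (edgeR). The highest sum, 720 CPM, was that of tumor 107, and Cd3d was at 0 in some libraries. B and plasma cell markers, 3 of 8 tested, summed to 639 to 1340 CPM against 308 to 512 CPM. Nearly all of this was Xbp1 (594 to 1320 CPM in older and 304 to 505 CPM in younger tumors), which secretory epithelium also makes. Ighm, the immunoglobulin mu chain, was 15.3, 20.7 and 23.5 CPM in older and 1.56, 3.01 and 2.39 CPM in younger tumors. Cd79a, another B cell marker, went the other way, with 0 to 7 reads and no test. It was 0, 0.662 and 0.778 CPM in older and 1.21, 1.06 and 1.19 CPM in younger tumors. The defining B cell markers Cd79b and Ms4a1 were at 0 in every tumor. Dendritic and plasmacytoid dendritic cell markers, 7 of 9 tested, summed to 96.5 to 168 CPM against 81 to 108 CPM. These sums overlapped, and Siglech was at 0 in some libraries. Tumor 102 also had the highest sums of the fibroblast markers (1390 CPM, other tumors 139 to 1070) and the adipocyte markers (170 CPM, other tumors 5.97 to 32.6). Csn2, the milk protein beta-casein, reached 107000 CPM in tumor 102, 74300 in 107 and 19700 in 116, against 7420, 33700 and 576 CPM in the younger tumors 157, 158 and 167. Endothelial, skeletal muscle and neutrophil marker sums overlapped between the age groups. Neutrophil markers, none of them tested, summed to 1.33 to 3.31 CPM in older and 0.716 to 9.2 CPM in younger tumors. The part of these cells in the levels of the interferon-stimulated genes was not tested.

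Among the factors that carry the signal, Irf7 and Irf1 differed in direction. Irf7, the regulator that amplifies type I interferon production, was 12.6, 53.6 and 55.8 CPM in the older tumors 102, 107 and 116, and 112, 97.5 and 69.2 CPM in the younger tumors 157, 158 and 167. The groups did not overlap, and tumor 102 was far below the other older tumors. The means were 40.7 ± 24.3 and 92.9 ± 21.7 CPM (SD, n = 3 each), a log2 fold change of -1.18 (standard error, SE, 0.52, adjusted p = 0.592, edgeR) that moved to -0.77 without tumor 102. Irf1, a transcription factor induced strongly by interferon gamma, was 15.3, 69.3 and 54.9 CPM in older and 36.3, 25.8 and 25.3 CPM in younger tumors. Here 107 and 116 lay above every younger tumor and 102 below every one. The log2 fold change was 0.68 (SE 0.51, adjusted p = 0.819, edgeR), 1.09 without tumor 102 and 0.28 without tumor 107.

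Stat2, a subunit of the complex that binds the ISRE, was 27.5, 107 and 63 CPM in older and 125, 95.3 and 75.9 CPM in younger tumors. The groups overlapped through tumor 107, and the log2 fold change was -0.58 (SE 0.46, adjusted p = 0.834, edgeR), or -0.22 without tumor 102 and -1.12 without tumor 107. Irf9, the DNA-binding subunit of that complex, was counted at 0, 0 and 2 reads in the older and 0, 4 and 4 reads in the younger tumors and was not tested. Isg15, a ubiquitin-like protein that is among the most strongly induced products of interferon, was listed at 0 in all 6 tumors, which allows up to 0.518 to 0.995 CPM by 3 counts. Whether the counting of these rows, or the RNA, gave those values was not tested.

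The Irf1 to Irf7 ratio within a library, which does not depend on how libraries are scaled, separated the age groups. Its log2 was 0.28, 0.37 and -0.03 in older tumors 102, 107 and 116, and -1.63, -1.92 and -1.45 in younger tumors 157, 158 and 167. Tumor 102 lay between the other older tumors by this measure, although its levels of both genes were the lowest of the 6. The group means were 0.21 ± 0.21 and -1.66 ± 0.23 (SD, n = 3 each), a difference of 1.87. This pair, like the others described, was picked with the levels of its genes known, so the ratio carries no test.

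The 3 sensors of nucleic acid had lower means in older tumors, and all 3 overlapped between groups. Ifih1 (MDA5), which binds long double-stranded RNA, was 19.2, 38.4 and 42.4 CPM in older and 45.6, 37.1 and 43.7 CPM in younger tumors. Dhx58 (LGP2), which modulates MDA5, was 5.97, 27.1 and 24.5 CPM in older and 43.2, 31 and 24.1 CPM in younger tumors. In both genes tumor 102 was the lowest of the 6 and the other 2 older tumors reached the younger range. The log2 fold changes were -0.33 for Ifih1 (SE 0.33, adjusted p = 0.881, edgeR) and -0.76 for Dhx58 (SE 0.53, adjusted p = 0.802, edgeR), and without tumor 102 they were -0.06 and -0.35. Zbp1, a sensor of Z-form nucleic acid that can trigger cell death, ran from 2.65 to 30 CPM in older and from 8.14 to 31 CPM in younger tumors. Its log2 fold change of -0.10 (SE 0.78) became 0.40 without tumor 102.

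The oligoadenylate synthetases (OAS), which make the messenger that activates RNase L, moved in both directions. Oas2 was 10.6, 34.9 and 34.4 CPM in the older tumors 102, 107 and 116, and 83.6, 73.9 and 50.9 CPM in the younger tumors 157, 158 and 167. The groups did not overlap, with or without tumor 102. Its means were 26.6 ± 13.9 and 69.5 ± 16.8 CPM (SD, n = 3 each), with a log2 fold change of -1.37 (SE 0.46, adjusted p = 0.424, edgeR) and -1.01 without tumor 102. Oas3, the longest enzyme of the family and the next gene to Oas2 in the RefSeq order, was 27.2, 27.1 and 27.8 CPM in older and 20.6, 14.5 and 14.6 CPM in younger tumors. The older tumors were nearly equal and all above the younger ones. The means were 27.4 ± 0.383 and 16.5 ± 3.48 CPM (SD, n = 3 each), with a log2 fold change of 0.72 (SE 0.27, adjusted p = 0.502, edgeR) that stayed between 0.64 and 0.91 when any single tumor was left out. The log2 ratio of Oas3 to Oas2 was 1.36, -0.36 and -0.31 in older and -2.02, -2.35 and -1.80 in younger tumors, so that every older tumor was above every younger one.

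Oas1a, the short form of the enzyme, was 1.33, 21 and 26.7 CPM in older and 48.7, 27.6 and 48.2 CPM in younger tumors. The value of tumor 102 rested on 4 reads, and tumors 116 and 158 were almost level. Its log2 fold change was -1.33 (SE 0.78, adjusted p = 0.754, edgeR) and -0.80 without tumor 102. The rat genome holds several Oas1 genes that are much alike, and how reads were split among them is not given in the sources used here. Oasl2 was 3.32, 44.6 and 50.6 CPM in older and 109, 44.7 and 70 CPM in younger tumors, with a log2 fold change of -1.17 (SE 0.79, adjusted p = 0.79, edgeR) and -0.65 without tumor 102. Here tumors 116 and 158 overlapped and 102 was again far below the rest. Its neighbor Oasl ran from 3.32 to 14.8 CPM in older and from 11.9 to 33.4 CPM in younger tumors (log2 fold change -1.03, SE 0.59), and its log2 fold change was -0.63 without tumor 102 and -0.61 without tumor 157.

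Rsad2 showed the largest difference of the group with little spread inside either age group. It encodes viperin, a radical SAM enzyme that makes a chain-terminating nucleotide, and its counts were 15, 30 and 29 reads in the older tumors 102, 107 and 116 and 156, 159 and 107 reads in the younger tumors 157, 158 and 167. In CPM these were 4.97, 6.62 and 5.64 against 27, 28.1 and 25.5. All older tumors were close together, tumor 102 included, and far below all younger tumors, which were also close together. The means were 5.74 ± 0.827 and 26.9 ± 1.29 CPM (SD, n = 3 each), with a log2 fold change of -2.22 (SE 0.29, adjusted p = 0.156, edgeR), and -2.33 to -2.13 when any single tumor was left out.

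Cmpk2, which supplies viperin with its substrate and lies next to Rsad2, did not share this difference. It was 13.3, 24 and 16 CPM in older and 21.9, 18.4 and 27.2 CPM in younger tumors, and the groups overlapped. The means were 17.8 ± 5.61 and 22.5 ± 4.44 CPM (SD, n = 3 each), with a log2 fold change of -0.34 (SE 0.33, adjusted p = 0.878, edgeR) and -0.17 without tumor 102. The log2 ratio of Cmpk2 to Rsad2 was 1.42, 1.86 and 1.50 in older and -0.30, -0.61 and 0.09 in younger tumors. Within each library, therefore, the balance of these neighbors separated the age groups by 1.86 on the log2 scale (1.59 ± 0.24 against -0.27 ± 0.35; SD, n = 3 each). No ISRE letters were in the Cmpk2 window.

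**Figure D3:**
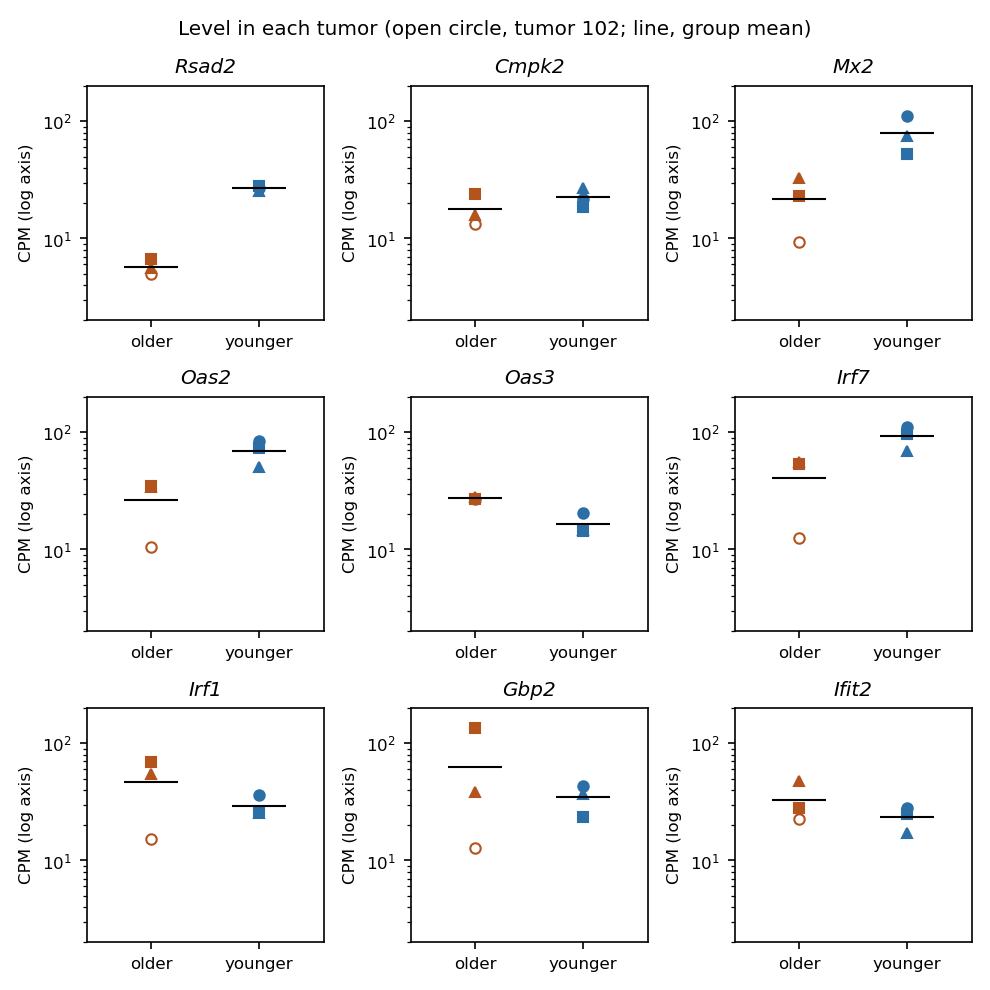
Level in CPM (vertical, log axis) of 9 interferon-stimulated genes in the older tumors (orange; open circle 102, square 107, triangle 116) and the younger tumors (blue; circle 157, square 158, triangle 167), with a line at each group mean. Rsad2, Mx2, Oas2 and Irf7 do not overlap and are lower in older tumors, Oas3 does not overlap and is higher, and Cmpk2, Irf1, Gbp2 and Ifit2 overlap.

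The antiviral IFIT family was mixed. Ifit2 was 22.5, 28.2 and 47.3 CPM in older and 28.2, 24.8 and 17 CPM in younger tumors. The groups overlapped, and tumor 116 was the highest. Its log2 fold change of 0.49 (SE 0.36, adjusted p = 0.813, edgeR) stayed above 0 when any single tumor was left out, between 0.12 and 0.69. Ifit3, the next gene in the RefSeq order, was 2.32, 4.63 and 1.75 CPM in older and 7.6, 4.78 and 2.86 CPM in younger tumors. Its groups overlapped at these low levels (7 to 44 reads), with a log2 fold change of -0.81 (SE 0.57, adjusted p = 0.807, edgeR). Ifit1 had only 5 to 21 reads per tumor. Its levels were 6.96, 1.99 and 1.95 CPM in older and 3.28, 2.65 and 1.19 CPM in younger tumors, and tumor 102 alone placed the older mean above the younger one. The log2 fold change was 0.54 (SE 0.68, adjusted p = 0.911, edgeR) and -0.29 without tumor 102.

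The ratio of Ifit2 to Rsad2 in the same library separated the age groups, as Rsad2 did by itself and Ifit2 did not. The log2 ratio of Ifit2 to Rsad2 was 2.18, 2.09 and 3.07 in older and 0.06, -0.18 and -0.59 in younger tumors, a difference of 2.68 between the means (2.45 ± 0.54 and -0.24 ± 0.33; SD, n = 3 each). Against its neighbor Ifit3 the ratio was 3.28, 2.61 and 4.75 in older and 1.89, 2.37 and 2.56 in younger tumors, where the nearest tumors, 107 and 167, were almost level.

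Among the GTPases, the Mx proteins were lower and Gbp2 was higher in the mean of older tumors. Mx2 was 9.28, 23.2 and 32.7 CPM in the older tumors 102, 107 and 116, and 111, 52.9 and 75.2 CPM in the younger tumors 157, 158 and 167. The groups did not overlap. Its means were 21.7 ± 11.8 and 79.6 ± 29.2 CPM (SD, n = 3 each), with a log2 fold change of -1.86 (SE 0.48, adjusted p = 0.324, edgeR) and -1.51 without tumor 102. Mx1, which assembles into rings that block viral nucleoproteins, ran from 6.3 to 36.2 CPM in older and from 31.3 to 41.3 CPM in younger tumors. Its log2 fold change was -0.70 (SE 0.54), -0.28 without tumor 102 and -1.25 without tumor 107, and the groups overlapped through tumor 107.

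Gbp2, a guanylate-binding protein that responds to interferon gamma, was 12.9, 135 and 38.7 CPM in older and 43.4, 23.5 and 36.8 CPM in younger tumors. The older mean was set by tumor 107, which also had the highest T and NK cell marker sum. A link between these values was not tested. The log2 fold change of 0.85 (SE 0.73, adjusted p = 0.855, edgeR) was 1.32 without tumor 102 and -0.40 without tumor 107. The log2 ratio of Gbp2 to Mx1 was 1.04, 1.90 and 0.73 in older and 0.07, -0.58 and 0.23 in younger tumors, and the older tumors were above the younger ones in each case.

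**Figure D4:**
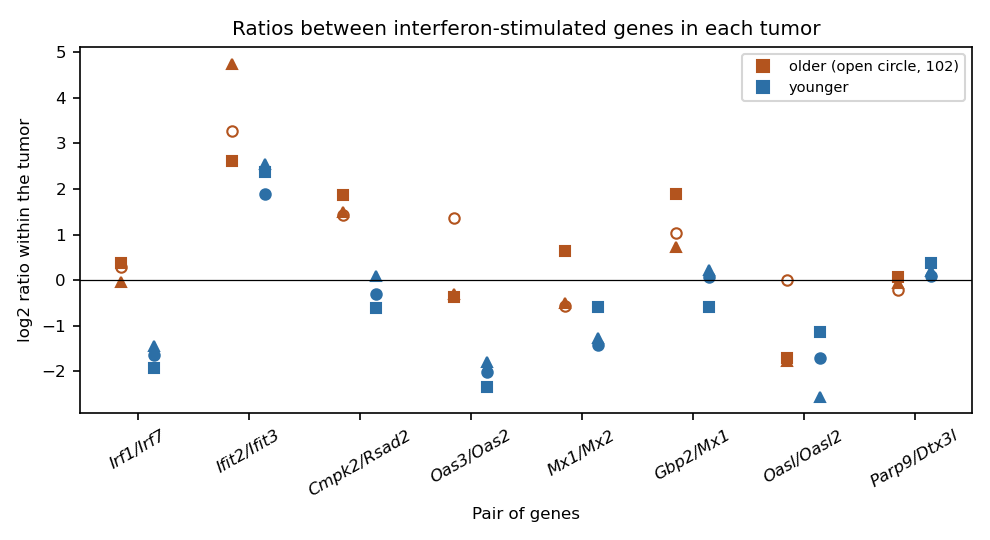
Log2 ratio between pairs of interferon-stimulated genes within a tumor (vertical axis) for 8 pairs (horizontal axis), with older tumors in orange (open circle 102, square 107, triangle 116) and younger tumors in blue (circle 157, square 158, triangle 167). The age groups are apart for Irf1/Irf7 (older 0.21 ± 0.21, younger -1.66 ± 0.23), Cmpk2/Rsad2, Oas3/Oas2 and Gbp2/Mx1. They are only just apart for Ifit2/Ifit3, Mx1/Mx2 and Parp9/Dtx3l, and overlap for Oasl/Oasl2.

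All 4 of the other antiviral effectors had lower means in older tumors. Eif2ak2 (PKR), the kinase that stops translation on sensing double-stranded RNA, was 42.4, 77.2 and 73.5 CPM in older and 114, 84.2 and 104 CPM in younger tumors. The groups did not overlap, but tumors 107 and 158 were close. Its log2 fold change was -0.64 (SE 0.29, adjusted p = 0.614, edgeR) and -0.42 without tumor 102. Adar, which edits double-stranded RNA and so keeps the sensors quiet, was 128, 202 and 150 CPM in older and 288, 186 and 199 CPM in younger tumors, with overlap between tumors 107, 158 and 167 and a log2 fold change of -0.49 (SE 0.29, adjusted p = 0.756, edgeR). Bst2 (tetherin), which holds budding particles at the membrane, ran from 3.98 to 56.2 CPM in older and from 36.4 to 89.5 CPM in younger tumors (log2 fold change -0.96, SE 0.77; -0.44 without tumor 102). The exonuclease gene Isg20 ran from 6.84 to 9.62 CPM in older tumors and from 6.01 to 24.2 CPM in younger tumors (log2 fold change -0.94, SE 0.52).

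In the enzymes of ISG15 and ubiquitin transfer and of ADP-ribosylation, the largest difference was that of Usp18. This protease removes ISG15 from proteins and blocks the type I receptor, and it was 2.98, 7.28 and 12.8 CPM in older and 44.2, 10.6 and 38.7 CPM in younger tumors. Tumor 158 of the younger group lay within the older range, below tumor 116. The means were 7.7 ± 4.94 and 31.2 ± 18 CPM (SD, n = 3 each), with a log2 fold change of -1.99 (SE 0.66, adjusted p = 0.424, edgeR) and -1.62 without tumor 102. Herc6, the ligase for ISG15 in rodents, shared the low value in tumor 158, with 36.1 CPM against 122 in 157 and 123 in 167, and 35.2 to 67.3 CPM in older tumors (log2 fold change -0.80, SE 0.48). Trim25, a ubiquitin ligase, was also low in 158, at 48.1 CPM against 99 and 73.8, and 43.4 to 54 CPM in older tumors (log2 fold change -0.62, SE 0.31).

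The PARP genes differed less. Parp14, a mono-ADP-ribosyltransferase, was 170, 369 and 320 CPM in older and 337, 223 and 287 CPM in younger tumors, with means of 286 ± 104 and 282 ± 57.4 CPM (SD, n = 3 each) and a log2 fold change of 0.02 (SE 0.35, adjusted p = 0.994, edgeR). Its partners Parp9 and Dtx3l are neighbors in the RefSeq order and form a complex, and their log2 fold changes were -0.34 (SE 0.29) and -0.09 (SE 0.26), or -0.11 and 0.10 without tumor 102. Tumor 102 was the lowest of the 6 in all 3 of these genes. The log2 ratio of Parp9 to Dtx3l moved little among tumors, from -0.21 to 0.38. It was -0.21, 0.07 and -0.05 in older and 0.09, 0.38 and 0.2 in younger tumors. Every older tumor was thus below every younger one, with tumors 107 and 157 almost level.

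Of the 8 remaining genes, 5 had a lower and 3 a higher mean in older tumors, and all 8 overlapped between groups. Ifi44, a protein of unsettled function, was 37.1, 42.8 and 36 CPM in older and 62.9, 34.1 and 78.1 CPM in younger tumors, with tumor 158 the lowest of all (log2 fold change -0.59, SE 0.33, adjusted p = 0.732, edgeR). Its neighbor Ifi44l was 18.2, 43.7 and 41.1 CPM in older and 32.3, 13.8 and 34.6 CPM in younger tumors (log2 fold change 0.36, SE 0.46, adjusted p = 0.914, edgeR; 0.66 without tumor 102, 0.15 without tumor 107 and 0.05 without tumor 158). Tumors 107 and 116 were above every younger tumor for Ifi44l, whereas for Ifi44 they were below 2 of the 3. Sp100, a component of PML nuclear bodies, was 285, 174 and 152 CPM in older and 134, 158 and 160 CPM in younger tumors. It was highest in tumor 102, and its log2 fold change of 0.44 (SE 0.29, adjusted p = 0.792, edgeR) was 0.11 without that tumor.

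Ifi35 was level in all 6 tumors, between 33.2 and 39.3 CPM (log2 fold change 0.05, SE 0.23). Ifi27, a small membrane protein, ran from 17.6 to 111 CPM in older and from 96.9 to 127 CPM in younger tumors (log2 fold change -0.83, SE 0.56; -0.39 without tumor 102). Xaf1, which promotes apoptosis, and Helz2, a helicase and coactivator, had log2 fold changes of -0.22 (SE 0.57) and -0.31 (SE 0.35), both with tumor 102 the lowest, and without that tumor 0.21 and -0.06. Lgals3bp, a secreted galectin-binding glycoprotein, ran from 23.5 to 124 CPM in older and from 55.5 to 166 CPM in younger tumors (log2 fold change -0.36, SE 0.62; 0.06 without tumor 102 and 0.26 without tumor 157).

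The rest of the pathway was described by 104 further genes, of which 79 were tested. Of the 30 tested genes that act upstream (interferons, receptors, JAK-STAT factors and the inducers of interferon), 24 had a higher and 6 a lower fitted level in older tumors, with a median log2 fold change of 0.39. Over all tested genes, 50.4% had a lower one. Of the 49 tested genes that act downstream, 22 were higher and 27 lower, with a median of -0.09. None of the 79 was called by edgeR, with an unadjusted p under 0.05 for 10 higher and 1 lower gene (background 5.28% and 3.27%). DESeq2 called 4 of them (Ifngr2, Ciita, Cd74 and Gbp6), each higher in older tumors, where it called 1.65% of all genes as higher. The Gbp6 symbol has 2 rows, of which the one with more counts was used. The RNA sensor Rigi was not analysed here.

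The interferons themselves were hardly counted. Ifnb1, Ifnl1 and Ifnl3 were at 0 in all 6 tumors, Ifna1 had 2 reads in tumor 157 and Ifng had 5 reads in tumor 107 and 0 elsewhere. Only Ifnk, an epithelial type I interferon, was tested. It was 8.29, 13 and 13.2 CPM in older and 17.3, 6.54 and 11.7 CPM in younger tumors, with a log2 fold change of -0.04 (SE 0.44, adjusted p = 0.992, edgeR) that was 0.15 without tumor 102 and 0.34 without tumor 157, and the groups overlapped.

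Receptor levels were on the higher side in older tumors, where the interferon-stimulated genes were mostly on the lower side. All 5 tested receptor genes had a higher fitted level, with a median log2 fold change of 0.59. Of the 5, 3 had all older tumors above all younger ones (background 6.57%) and an unadjusted p under 0.05 (background 5.28%), and 0 were called (edgeR). Without tumor 102 the fitted levels were higher for 4 and lower for 1, with a median of 0.54. Ifngr2, a chain of the interferon gamma receptor, was 94.5, 79.9 and 73.7 CPM in older and 37.8, 40.7 and 51.1 CPM in younger tumors (log2 fold change 0.94, SE 0.24, adjusted p = 0.322, edgeR). Ifngr1, the ligand-binding chain, was 667, 133 and 173 CPM in older and 71.5, 133 and 65.9 CPM in younger tumors, highest in tumor 102 (log2 fold change 1.84, SE 0.64, adjusted p = 0.452, edgeR; 0.76 without tumor 102), and tumors 107 and 158 were level. For the type I receptor, Ifnar2 was 62, 58.2 and 54.5 CPM in older and 34.9, 43 and 38.2 CPM in younger tumors (log2 fold change 0.59, SE 0.22, adjusted p = 0.502, edgeR). Ifnar1 and Ifnlr1, a chain of the interferon lambda receptor, had log2 fold changes of 0.46 (SE 0.31) and 0.19 (SE 0.32), or 0.11 and -0.13 without tumor 102, with overlapping groups.

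Between receptor and gene, 10 JAK-STAT transducers and brakes had a median log2 fold change of 0.17 (0.05 without tumor 102) and 0 called by edgeR, with 0 at an unadjusted p under 0.05. Of 14 genes that induce interferon, 12 had a higher fitted level in older tumors (median 0.52, and 0.29 without tumor 158), with 0 called by edgeR. An unadjusted p under 0.05 was reached by 3, all higher (background 5.28%): Irf5, Irf8 and Tlr8, genes known from myeloid cells. Irf5 was 27.2, 39 and 15 CPM in older and 12.6, 7.61 and 8.12 CPM in younger tumors (log2 fold change 1.51, SE 0.43, adjusted p = 0.343, edgeR). The 3 genes were named after their values were seen. The macrophage markers were higher in the same tumors, and their part in these levels was not tested.

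Taken as a list, the higher level of genes known as interferon gamma targets in older tumors rested on tumor 107. That tumor also had the highest T and NK cell marker sum, and the part of those cells in these levels was not tested. Of 17 tested, 13 had a higher and 4 a lower fitted level in older tumors, with a median log2 fold change of 1.06. An unadjusted p under 0.05 was reached by 4, all higher (background 5.28%), and 0 were called (edgeR). The same 4 (Ciita, Cd74, Gbp6 and Nlrc5) had every older tumor above every younger one (background 6.57%). Without tumor 107, however, 7 of the 17 were higher and 10 lower, with a median of -0.16, while Gbp6 and Nlrc5 were 1.31 and 0.47. Without tumor 102 all 17 were higher, with a median of 1.31. The mean log2 CPM over the 17 was 4.01, 6.50 and 5.16 in older tumors 102, 107 and 116 and 5.17, 4.01 and 4.58 in younger tumors 157, 158 and 167, so that only tumor 107 lay above the younger range. Ciita, the master regulator of MHC class II genes, was 10.3, 56 and 14.6 CPM in older and 5.88, 1.41 and 2.39 CPM in younger tumors (log2 fold change 3.05, SE 0.80, adjusted p = 0.332, edgeR; 1.94 without tumor 107). Cd74, the MHC class II invariant chain, was 336, 1770 and 381 CPM in older and 201, 111 and 98.6 CPM in younger tumors (log2 fold change 2.60, SE 0.71, adjusted p = 0.342, edgeR; 1.39 without tumor 107). Both were highest in tumor 107, and both are also made constitutively by antigen-presenting cells. Cxcl9, a chemokine induced by interferon gamma and added after its values were seen, was highest in the younger tumor 157, at 137 CPM against 4.31 to 90 CPM in the other tumors.

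A further 32 interferon-stimulated genes outside the 39 had a median log2 fold change of -0.18, with 23 lower and 9 higher in older tumors. None was called by edgeR, and 1, a lower one, was at an unadjusted p under 0.05 (background 3.27%). Without tumor 102 the median was 0.03, with 16 lower and 16 higher. The gene under 0.05, Oas1i, was 2.65, 5.74 and 7.2 CPM in older and 16.6, 10.8 and 22.2 CPM in younger tumors (log2 fold change -1.64, SE 0.48, adjusted p = 0.357, edgeR), without overlap, which is the pattern of Oas1a and Oas2. The mean log2 CPM over these 32 genes was again lowest in tumor 102, at 4.61 against 5.15 to 5.66 in the other tumors.

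**Figure D5:**
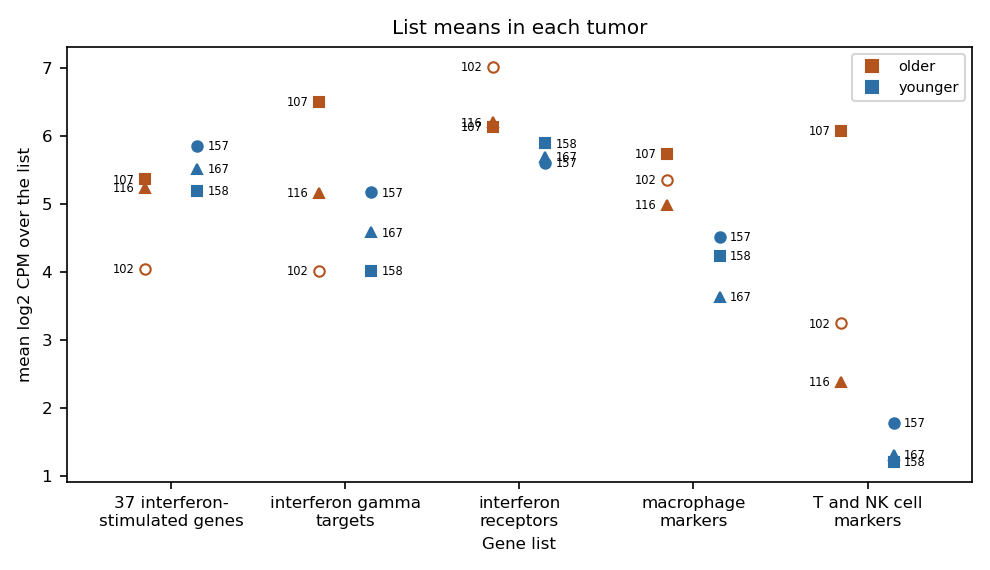
Mean log2 CPM over each gene list (vertical axis) in the 6 tumors, labelled by tumor, for the 37 tested interferon-stimulated genes, 17 interferon gamma targets, 5 interferon receptors, 12 macrophage and 7 T and NK cell markers, with older tumors in orange and younger in blue. Tumor 102 is lowest for the interferon-stimulated genes (4.04) and only tumor 107 is above the younger range for the interferon gamma targets, while the older tumors are above the younger ones for the receptors and for both marker lists.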

How the data were processed

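RNA from 6 frozen mammary tumors was sequenced as 1 library each. The authors checked reads with FastQC 0.11.7, trimmed them with Trimmomatic 0.38, aligned them to mRatBN7.2 with STAR 2.7.9a, marked duplicates with Picard 2.18.12 and deposited raw read counts per gene from HTSeq 0.13.5. The gene annotation and the strand setting are not given in the sources used here. The labels name polyA RNA, whereas the protocol describes depletion of ribosomal RNA.

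Counts were analysed in R 4.3.3. Genes kept by edgeR 4.0.16 (filterByExpr with age group) were scaled by TMM and compared by its quasi-likelihood test, with Benjamini-Hochberg adjustment over all 14060 genes and a threshold of 0.05. Standard errors were derived from the F statistic. CPM use TMM, and log2 CPM a prior count of 2. Alternatives used DESeq2 1.42.0, limma 3.58.1, other filters and scalings, and each tumor left out. Members and lists were chosen with earlier results of these data known. Every gene of the list was named. Values per tumor were given for the gene with the smallest p and the one with the highest mean in each role, for genes opposite in sign to the median by at least 0.25, and for Isg15, Stat2, Irf9 and Irf7. Names matched RefSeq for 39 of 39. The statistics were tested on simulated data. No columns were left unused.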

Additional observations from a re-analysis of the deposited data

How the results depend on the processing

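The sign of both summaries of the group held under every alternative run. The median log2 fold change of the tested genes, -0.58, ran from -0.63 to -0.50 under other scalings, filters and tools and from -0.72 to -0.29 when a single tumor was left out, and the difference of the means over the group, -0.64, ran from -0.70 to -0.60 and from -0.89 to -0.22. The lowest size in both came without tumor 102. Genes called over the whole table rose from 0 to 1 with a filter of at least 1 count in any tumor and to 346 with DESeq2. With DESeq2, 2 genes of the group (Rsad2 and Mx2) and 4 further pathway genes were called, against 0 by edgeR. The number of genes with all older tumors below all younger ones, 6, ran from 6 to 16 when a tumor was left out, with 13 without tumor 107 (10% of all genes) and 16 without tumor 158 (11%). It was 9 without tumor 116 (13.6%) and without tumor 167 (12%), and 6 without tumor 102 (8.86%) and without tumor 157 (8.1%). With library totals alone it was 4 (4.64% of all genes), and with at least 10 counts in every tumor 5 (5.26%).

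For single genes, 458 alternatives kept direction and call, 2 gained a call (Rsad2 and Mx2 with DESeq2) and 16 in 8 genes changed sign. Without tumor 102, Zbp1 (0.40), Dtx3l (0.10), Xaf1 (0.21), Lgals3bp (0.06) and Ifit1 (-0.29) did so. Gbp2 was -0.40 without tumor 107. With single tumors left out, Zbp1 ran from -0.70 to 0.44, Ifit1 from -0.29 to 0.85, Gbp2 from -0.40 to 1.32, Parp14 from -0.20 to 0.29, Dtx3l from -0.25 to 0.10, Ifi35 from -0.01 to 0.12, Xaf1 from -0.51 to 0.21 and Lgals3bp from -0.91 to 0.26. Parp14 was -0.04 with library totals and with limma-voom, and Ifi35 -0.01 with library totals. Among the pathway lists, with each tumor left out as an alternative chosen after seeing the data, the median ran from -0.16 (without tumor 107) to 1.31 for the interferon gamma targets and from -0.47 to 0.03 (without tumor 102) for the other interferon-stimulated genes. The cause was not tested.

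With 3 tumors per group, the smallest two-sided p that exact permutation of the tumors allows is 0.1. Genes under 3 counts were not detectable at this depth. No paired analysis was possible because every tumor stands for a rat of its own and the groups share no replicate numbers.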
